A study of Mus musculus with 7 samples.

Results

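The mRNA levels of 50 genes that serve autophagy and the lysosome were followed in mouse liver. The genes were chosen by name, from the TFEB family of transcription factors through the autophagy machinery and its cargo receptors to the membrane proteins, enzymes and proton pump of the lysosome. All 50 were found among the 54532 genes of the deposited table. All 50 also passed the filter on low values that left 12699 genes to be tested. The tissue came from male C57BL/6 mice aged 30 weeks, of which 4 were on caloric restriction (CR) and 3 were fed ad libitum (AL). Restriction began at 12 weeks of age, was stepped up to 30% and had lasted 18 weeks when livers were removed in the afternoon. CR mice lived alone and were given 1 meal a day, whereas AL mice lived in groups with food always present, so that the effects of diet, of housing and of meal timing cannot be told apart. Each mouse gave 1 library of poly(A) RNA, and the libraries are called CR1 to CR4 and AL1 to AL3 after the replicate numbers in the sample labels. The mice carried no engineered allele in the labels, and neither group received a drug.

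Autophagy is the process by which a cell encloses part of its cytoplasm in a double membrane, the autophagosome, and delivers it to the lysosome for digestion. The ULK kinase complex starts the process, a lipid kinase complex around Beclin 1 marks the site, and a pair of ubiquitin-like conjugation systems attaches proteins of the ATG8 family to the growing membrane, where cargo receptors bind them. In the lysosome, proteases and lipases work in an acid lumen that the vacuolar proton pump (V-ATPase) maintains, and in the fasting liver the process is known for releasing amino acids and fatty acids.

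Expression is given in FPKM, that is, fragments per kilobase of gene scaled to sequencing depth, so that levels can be compared between genes as well as between livers. The reads behind these values numbered 16486665 to 19900806 in the CR libraries and 15641740 to 16101631 in the AL libraries, and 1 read in a gene of 2 kb is worth 0.025 to 0.0321 FPKM. Genes of hepatocytes dominated every library, with Alb, which encodes serum albumin, at 36441 to 42291 FPKM in CR livers and 13855 to 24725 FPKM in AL livers. AL3 stood apart from the other AL libraries, with a chi-square per gene of 103 and 125 against AL2 and AL1, whereas AL1 and AL2 differed by 17. The 7 hepatocyte markers summed to 46599 to 50832 FPKM in CR livers, against 35581, 33516 and 20717 FPKM in AL1 to AL3. Alb made up most of each sum and was the only one of the 7 called, as higher in CR, while Asgr1, a receptor on hepatocytes, was at 301 FPKM in AL3, above 239 and 227 FPKM in AL1 and AL2. Calls that change without AL3 are marked as such. Mitochondrial genes took 5.62 to 8.09% of the reads in CR livers and 3.92 to 4.86% in AL livers. In whole liver, fewer cells of a type and less RNA per cell cannot be told apart.

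Of the 50 genes, 10 rose in CR livers and 4 fell at an adjusted p under 0.05 (limma, p adjusted by Benjamini-Hochberg across every gene in the test), while 36 did not pass. Over all genes tested, 11.3% were called higher and 10.2% lower, so that the 10 genes that rose are 20% of the set and the 4 that fell are 8%. The median log2 fold change (CR over AL, of FPKM + 0.1) was 0.13 for the 50 genes and -0.002 for all genes tested. Every CR library lay above every AL library for 15 of the 50 genes, against 17.6% of all genes tested, and below for 7, against 16.8% of all genes tested. The remaining 28 overlapped. Only Bnip3 and Npc1 exceeded a log2 fold change of 1 among the called genes, a size reached upwards with a call by 3.94% of all genes tested. The counts depended on single libraries. They were 2 higher and 1 lower without AL1, 3 and 1 without AL2, 5 and 1 without CR2, and 7 and 1 without CR1 or without CR4. Over all 12699 genes the counts were 1433 and 1291 with every library. They fell to 799 and 686 without AL1, 699 and 629 without AL2, and 911 and 841 without CR2. Without CR1 they were 1006 and 881, and without CR4 1111 and 976. Without AL1 or AL2 the share of the 50 genes called higher was near or below that over all genes.

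The 50 genes were expressed more strongly than most, with a median of the mean levels of 16.6 FPKM, against 3.79 FPKM for all genes tested. Lamp1, which encodes the most abundant glycoprotein of the lysosomal membrane, stood first at a mean of 221 FPKM. Psap, the precursor of the saposins that help enzymes to reach their lipids, came second. Mitf, a TFEB relative better known from pigment cells, came last at 0.644 FPKM.

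**Figure D1:**
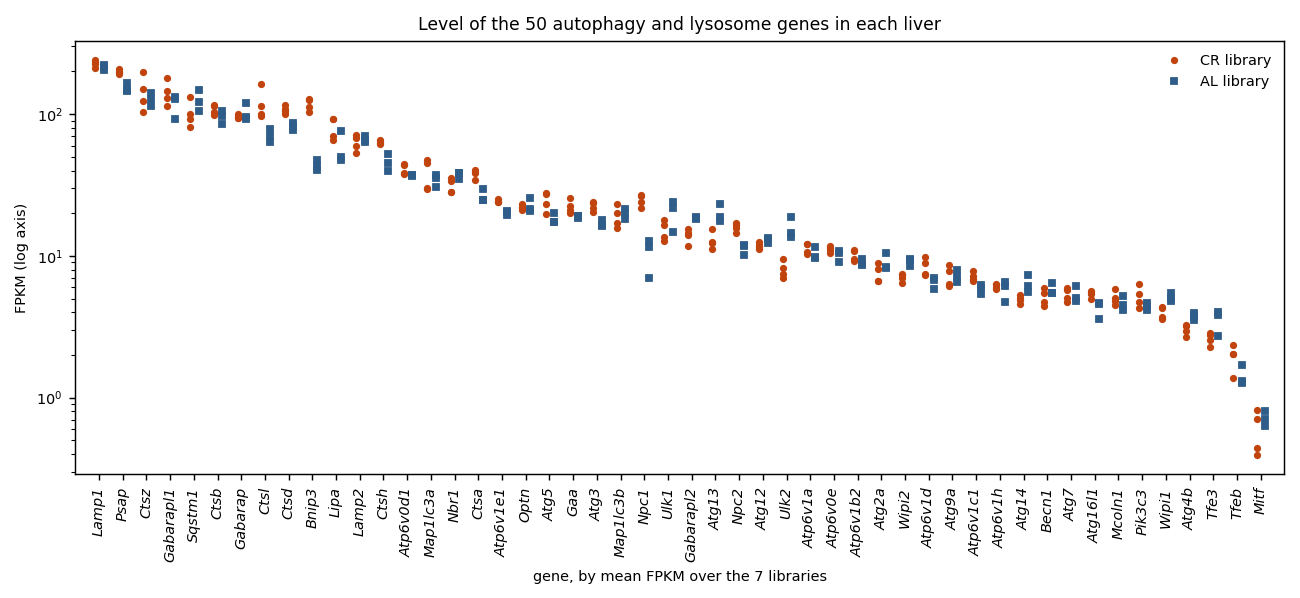
Level of each of the 50 genes in the 4 CR libraries (circles) and the 3 AL libraries (squares), in FPKM on a log axis, with genes ordered by their mean over the 7 libraries. Means run from 221 FPKM for Lamp1 to 0.644 FPKM for Mitf, and for most genes the difference between the diets is small beside the differences between genes.

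The 14 genes for lysosomal membrane proteins, proteases and other lumenal proteins had 7 members higher in CR livers (50%) and 0 lower, with a median log2 fold change of 0.38. By limma-voom on the recovered reads the counts were also 7 and 0, and at an unadjusted p under 0.05 they were 8 and 0. Without AL1 the calls of Ctsa, Ctsd, Ctsh, Ctsl, Npc2 and Psap were lost, so that only Npc1 kept its call. Without AL2 the same calls other than that of Npc2 were lost. The 28 genes for the autophagy machinery, the receptors and the TFEB family had 2 members higher (7.14%) and 4 lower (14.3%), shares near those over all genes tested, with a median of -0.15. The 8 subunits of the V-ATPase had 1 member higher (12.5%) and 0 lower, with a median of 0.16. Whether these groups differed from each other was not tested.

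**Figure D2:**
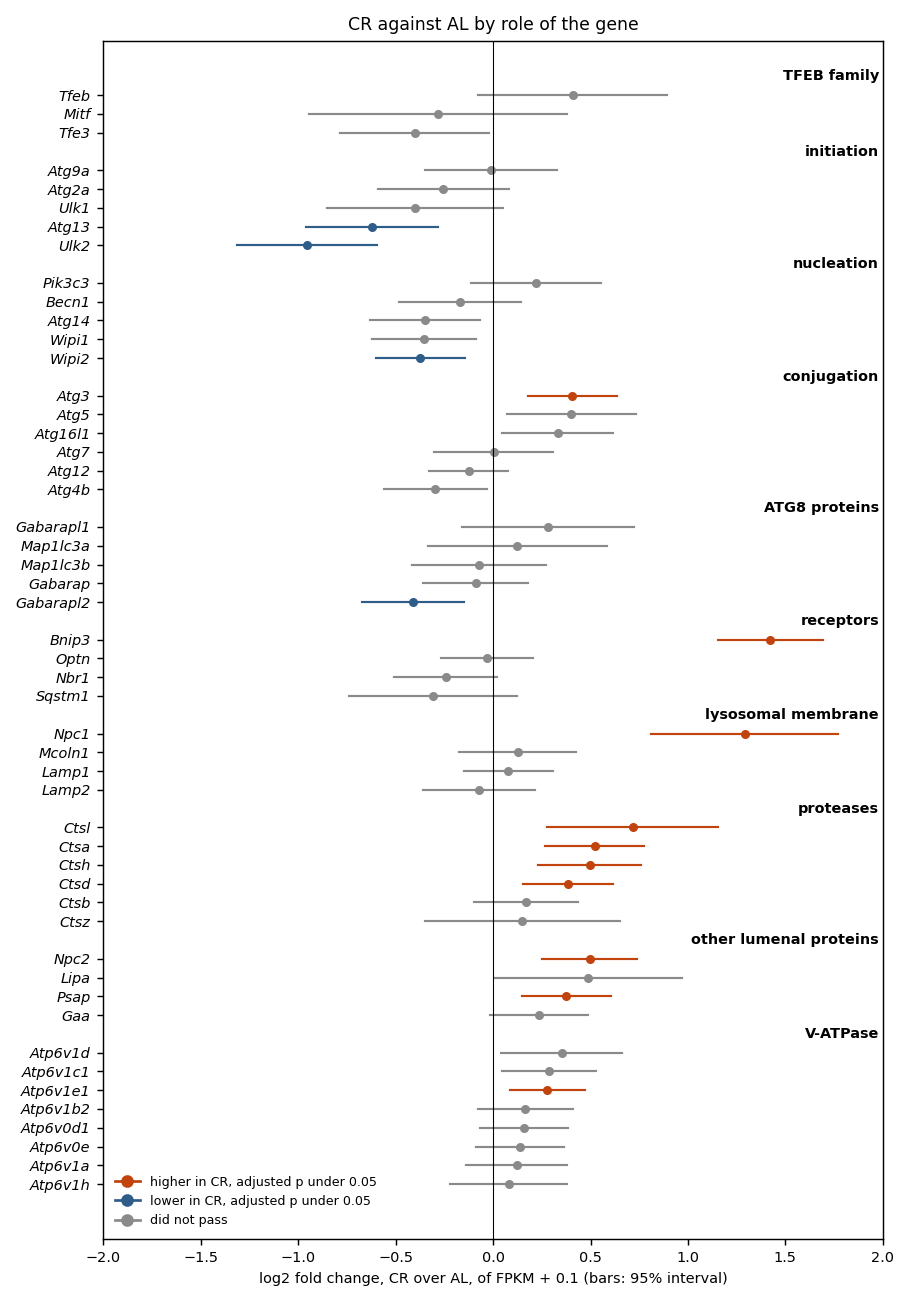
Log2 fold change (CR over AL, of FPKM + 0.1) of each gene with its 95% interval, grouped by role. Red marks the 10 genes that passed the test upwards, blue the 4 that passed downwards and grey the 36 that did not pass. All 6 proteases and all 8 V-ATPase subunits lie above 0, and all 5 initiation genes lie below it, with Atg9a at -0.01 here and at 0.02 under quantile normalization.

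None of the 3 transcription factors of the TFEB family passed the test. TFEB and TFE3 enter the nucleus when the kinase mTORC1 is inactive and switch on genes of lysosomes and autophagy. Tfeb had 1.37, 2.04, 2.04 and 2.37 FPKM in CR1 to CR4, against 1.28, 1.32 and 1.70 FPKM in AL1 to AL3. CR1 lay within the AL range and the other CR livers above it, with a log2 fold change of 0.41 (95% interval -0.08 to 0.89, adjusted p = 0.205, limma). Tfe3 had 2.27, 2.77, 2.84 and 2.57 FPKM in CR livers, against 3.82, 4.02 and 2.73 FPKM in AL livers. AL3 alone fell among the CR livers, and the log2 fold change of -0.40 (95% interval -0.78 to -0.02) had an adjusted p of 0.120. Without AL3, Tfe3 passed at a log2 fold change of -0.57 (limma adjusted p = 0.0273), while the adjusted p over the 16 alternatives ran from 0.0273 to 0.335. Mitf had 0.439, 0.819, 0.396 and 0.709 FPKM in CR livers, against 0.634, 0.808 and 0.704 FPKM in AL livers, and the groups overlapped (log2 fold change -0.28, 95% interval -0.95 to 0.38). At an unadjusted p under 0.05, 1 of the 3 was lower and 0 higher, and limma-voom called 0 of the 3. The activity of these factors is set largely by where in the cell they are, which mRNA does not show.

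The letters that TFEB-family factors are known to bind were searched in promoters, since many of the lysosomal genes are known targets. RefSeq windows of 250 bases before to 50 bases after the start (build GRCm38.p6) were at hand for 39 of the 50 genes. The E-box CACGTG reads the same on both strands, and the longer TCACGTGA, which contains it, does so too. The E-box was in a window of 14 of the 39 genes (35.9%). The share was 12.1% of the 8950 tested genes with a window and 8.09% of all 27025 genes with a window. A gene with several windows counted once, as a match if any of them matched. The longer motif was in a window of 7 of the 39 (17.9%), against 2.21% of the tested genes and 1.12% of all genes with a window. Among the genes with a window, 5 of 8 that were higher in CR livers held the E-box. Among those that did not pass 9 of 27 held it, and among the 4 that fell none. Among all tested genes with a window, 13.7% of those higher in CR and 11.1% of those lower held the E-box. A match describes letters, not a bound site or a cause.

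The stretches below are shown because they place the motif in genes of different roles, with E-boxes in capitals, or the longer motif where it is present, each written 5′ to 3′ on the strand of its gene. Ctsa, at chr2:164833757-164833786 on the plus strand, is the only gene shown with the longer motif more than once. Another Ctsa window held no E-box.
Ctsa: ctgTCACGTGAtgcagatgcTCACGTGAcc
Ctsd and Atg3, both higher in CR livers, hold it before the start at chr7:142387908-142387937 on the minus strand and at chr16:45158746-45158775 on the plus strand.
Ctsd: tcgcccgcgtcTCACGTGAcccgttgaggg
Atg3: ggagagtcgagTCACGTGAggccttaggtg
Bnip3 and Ctsl, also higher in CR livers, hold only the shorter letters, at chr7:138909597-138909626 and chr13:64370739-64370768, both on the minus strand.
Bnip3: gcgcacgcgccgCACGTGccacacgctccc
Ctsl: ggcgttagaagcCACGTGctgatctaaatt
Genes that did not pass hold the longer motif as well, here 3 subunits of the V-ATPase at chr8:105566050-105566079 (minus strand), chr17:26676387-26676416 (plus strand) and chr16:44139373-44139402 (minus strand), and the calcium channel gene Mcoln1 at chr8:3500462-3500491 (plus strand).
Atp6v0d1: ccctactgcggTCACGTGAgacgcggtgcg
Atp6v0e: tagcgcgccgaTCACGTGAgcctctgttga
Atp6v1a: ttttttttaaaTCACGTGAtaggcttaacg
Mcoln1: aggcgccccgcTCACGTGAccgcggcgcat
The 65 bases just before the Lamp1 start, at chr8:13159096-13159160 on the plus strand, hold 4 E-boxes, although Lamp1 did not pass the test.
Lamp1: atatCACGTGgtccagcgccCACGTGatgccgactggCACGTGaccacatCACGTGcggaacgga

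**Figure D3:**
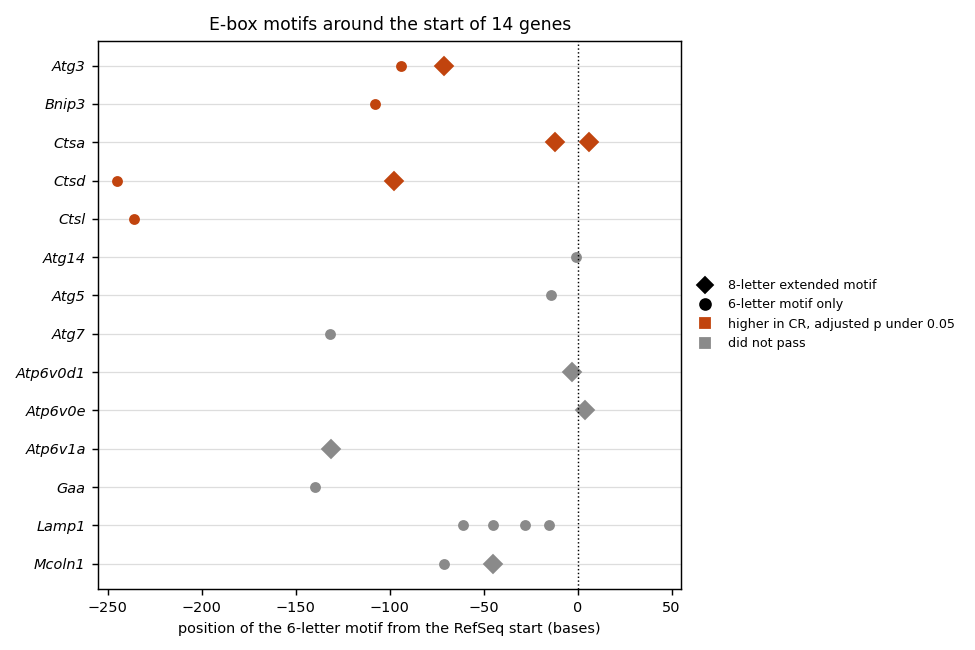
Position of each E-box (circles) or longer motif (diamonds) in bases from the RefSeq start, for the 14 genes with a match, with genes higher in CR livers in red and genes that did not pass in grey. Most matches lie before the start, and Lamp1 has 4 E-boxes in a row. Ctsa carries the longer motif on both sides of the start in the window with a match, while another of its windows has none.

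In the initiation step all 5 genes had a negative log2 fold change, although Atg9a was at 0.02 under quantile normalization, and 2 of the 5 passed the test. Their FPKM summed to 47.9, 49.6, 54.1 and 51.6 in CR1 to CR4, against 69.9, 78.6 and 67.4 in AL1 to AL3, so that the sums did not overlap. Ulk2 (ENSMUSG00000004798, chr11:61775649-61855073) encodes one of the kinases that start autophagy. It had 9.54, 8.15, 6.94 and 7.40 FPKM in CR livers, against 14.6, 13.5 and 18.8 FPKM in AL livers. Every CR liver lay below every AL liver, and Ulk2 fell by 0.95 on the log2 scale (SE 0.155, adjusted p = 0.00578, limma). The Ulk2 call was lost only with the replicate number as a block (adjusted p 0.0619, within 0.00286 to 0.0619 over the alternatives). Atg13 (ENSMUSG00000027244, chr2:91674618-91710576) encodes the subunit that joins the ULK kinases to their scaffold. It had 11.3, 12.6, 15.5 and 12.2 FPKM in CR livers, against 18.7, 23.4 and 17.5 FPKM in AL livers, and fell by 0.62 on the log2 scale with no overlap (SE 0.146, adjusted p = 0.0230, limma). The Atg13 call was lost without CR1, CR2, CR4, AL1 or AL2 (adjusted p 0.0531 to 0.0837), and over the 16 alternatives the adjusted p ran from 0.0128 to 0.108.

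Ulk1, the other kinase, had 12.7, 13.6, 16.4 and 17.8 FPKM in CR livers, against 21.7, 24.2 and 14.8 FPKM in AL livers. AL3 lay among the CR livers, and Ulk1 did not pass (log2 fold change -0.40, 95% interval -0.85 to 0.05, adjusted p = 0.184, limma). Without AL3 it did, at -0.61 (adjusted p = 0.0385, limma, within a range of 0.0385 to 0.465 over the alternatives). The membrane scramblase gene Atg9a and the lipid transfer gene Atg2a overlapped between the diets, with log2 fold changes of -0.01 and -0.26, and Atg9a was at 0.06 without AL3.

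Among 5 genes of the nucleation step, 1 passed. Wipi2 (ENSMUSG00000029578, chr5:142627698-142670588) encodes a reader of the lipid made at the site of nucleation. It had 6.93, 6.44, 7.35 and 7.47 FPKM in CR livers, against 9.43, 9.55 and 8.48 FPKM in AL livers. Every CR liver was below every AL liver, and Wipi2 fell by 0.37 on the log2 scale (SE 0.0992, adjusted p = 0.0342, limma). That call was lost without any 1 of the libraries other than AL3 (adjusted p 0.0507 to 0.124), and its adjusted p ran from 0.0253 to 0.134 over the alternatives. Its relative Wipi1 and Atg14, which directs the lipid kinase to autophagy, were also below every AL library in all CR livers but did not pass (log2 fold change -0.35 for both, adjusted p = 0.0633 and 0.0792, limma), though Wipi1 did when libraries were scaled to their own read totals (0.0468, within 0.0468 to 0.245 over the alternatives). Becn1, the Beclin 1 gene, and Pik3c3, the catalytic subunit of the lipid kinase, overlapped at log2 fold changes of -0.17 and 0.22. Transcripts of Becn1 shared 30.7% of their 100-base words with other genes, so that its reads may be split. Among genes named without such a value beside them, the shared words made up 27.75% in Atg9a, 15.96% in Ncoa4, 13.68% in Sqstm1, 12.78% in Arsa and 11.44% in Ctsb.

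The conjugation step had 1 gene of 6 higher and 0 lower. At an unadjusted p under 0.05 the counts were 3 and 1, and limma-voom gave 1 and 0. Atg3 (ENSMUSG00000022663, chr16:45158785-45188538) encodes the enzyme that hands ATG8 proteins to the membrane lipid. It had 24.2, 23.6, 21.9 and 20.4 FPKM in CR livers, against 18.0, 16.5 and 16.3 FPKM in AL livers. All CR livers lay above all AL livers, and Atg3 rose by 0.41 on the log2 scale (SE 0.0988, adjusted p = 0.0255, limma). Without CR1, CR2, AL1, AL2 or AL3 the Atg3 call was lost (adjusted p 0.0511 to 0.0946, within 0.02003 to 0.0946 over the alternatives). Atg5, which forms the conjugate that acts at the same step, had 27.8, 27.2, 23.1 and 19.6 FPKM in CR livers, against 17.5, 17.4 and 20.1 FPKM in AL livers. AL3 was above CR4, and the log2 fold change of 0.40 did not pass (95% interval 0.07 to 0.73, adjusted p = 0.0834, limma). Without CR4, Atg5 passed at 0.50 (adjusted p = 0.0361, limma, within 0.0361 to 0.218 over the alternatives). Atg16l1, the partner of Atg5, was at 0.33 with no overlap but an adjusted p of 0.0937. The remaining 3, Atg4b, Atg7 and Atg12, had log2 fold changes of -0.30, 0.00 and -0.13.

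The ATG8 proteins, which coat the autophagosome and hold the receptors, differed in level more than in response to the diet. Gabarapl1 was the most abundant of the 5 with 179, 146, 130 and 114 FPKM in CR livers, against 127, 132 and 92.0 FPKM in AL livers. CR and AL livers overlapped, with a log2 fold change of 0.28 (95% interval -0.16 to 0.72, adjusted p = 0.327, limma), and 18.0% of its 100-base words occur in other genes. Gabarap followed with 94.2 to 99.5 FPKM in CR livers and 92.9 to 120 FPKM in AL livers. The LC3 genes were lower. Map1lc3a had 29.8, 30.2, 47.8 and 45.1 FPKM in CR livers, against 36.9, 35.5 and 30.5 FPKM in AL livers. Its CR livers fell into a low and a high pair around the AL range, and a log2 fold change of 0.12 (95% interval -0.33 to 0.58) did not pass. Map1lc3b had 15.8 to 23.3 FPKM in CR livers and 18.1 to 21.3 FPKM in AL livers.

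Gabarapl2 (ENSMUSG00000031950, chr8:111940703-111953612), the least abundant, was the only one of the 5 to pass. It had 14.6, 11.7, 15.5 and 13.96 FPKM in CR livers, against 18.5, 18.3 and 18.7 FPKM in AL livers. All CR livers were below the narrow AL range, and Gabarapl2 fell by 0.41 on the log2 scale (SE 0.114, adjusted p = 0.0384, limma). Leaving out any 1 library except CR3 ended the call (adjusted p 0.0650 to 0.107, within 0.0307 to 0.124 over the alternatives). The FPKM of all 5 summed to 287 to 334 in CR livers and 280 to 302 in AL livers, which overlap.

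Among the 4 cargo receptors Bnip3 rose and the others did not pass. Bnip3 (ENSMUSG00000078566, chr7:138890836-138909519) encodes a receptor in the outer mitochondrial membrane that brings mitochondria to autophagosomes. It had 104, 113, 125 and 128 FPKM in CR livers, against 43.0, 47.8 and 40.3 FPKM in AL livers. The lowest CR liver was above the highest AL liver by a wide margin, and the mean of CR livers was 2.69 times that of AL livers. The log2 fold change was 1.42 (SE 0.117, adjusted p = 2.72e-04, limma), and Bnip3 passed under each of the 16 alternatives, with adjusted p from 8.40e-05 to 0.0141. Its transcripts shared 24.6% of their 100-base words with other genes. The red blood cell markers Hba-a1 and Hbb-bs, both higher in CR, summed to 225 to 348 FPKM in CR livers and 93.3 to 140 FPKM in AL livers, and their part in the Bnip3 result was not tested.

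Sqstm1 encodes p62, a receptor for ubiquitin-tagged cargo that is itself digested. It had 81.2, 92.7, 131 and 100 FPKM in CR livers, against 123, 147 and 105 FPKM in AL livers. CR3 lay within the AL range, and the log2 fold change of -0.31 did not pass (95% interval -0.74 to 0.12, adjusted p = 0.279, limma). Nbr1, a related receptor, and Optn, which serves damaged mitochondria and bacteria, overlapped at -0.24 and -0.03.

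**Figure D4:**
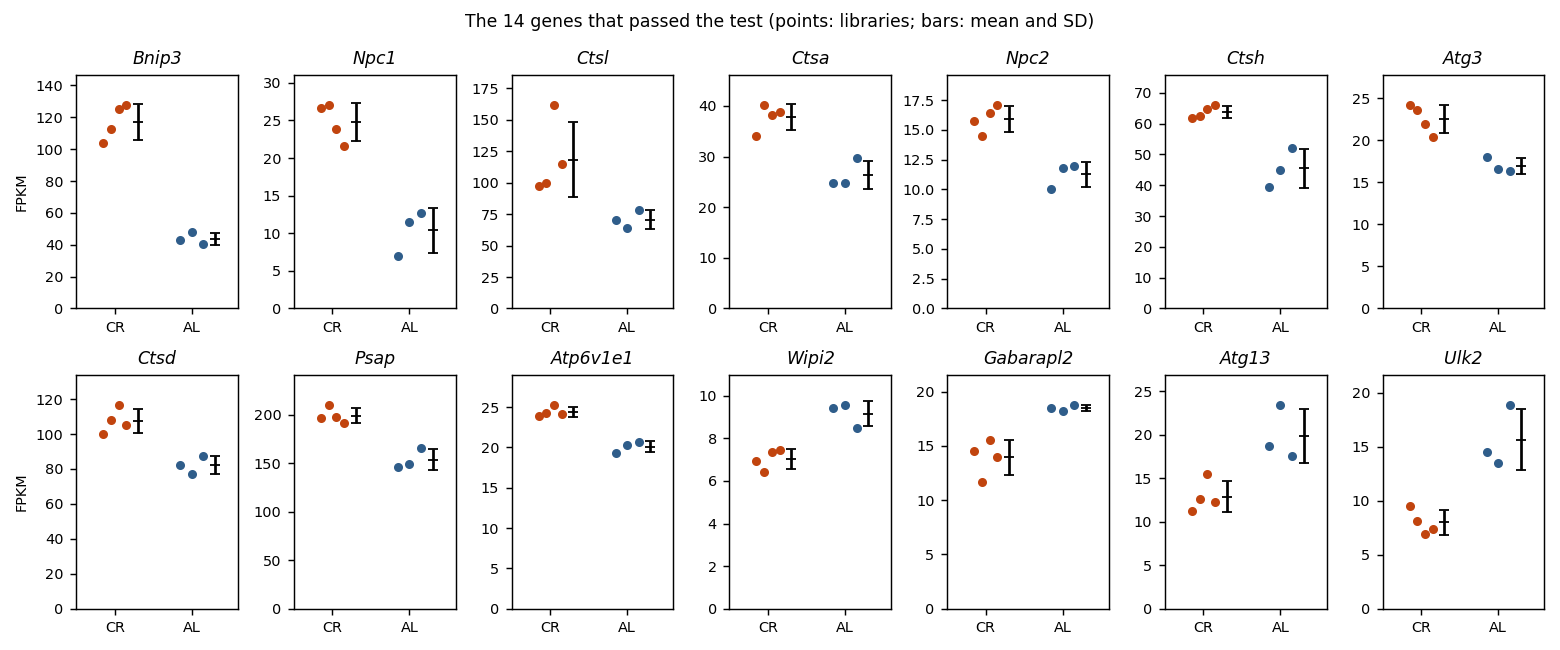
FPKM of the 14 genes that passed the test in each library, CR left and AL right, with the mean and SD of each group beside the points and every axis starting at 0. In all 14 the groups do not overlap, and the gap is widest for Bnip3 and Npc1.

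At the lysosomal membrane 1 gene of 4 rose. Npc1 (ENSMUSG00000024413) encodes the membrane protein that lets cholesterol leave the lysosome. It had 26.6, 27.0, 23.8 and 21.7 FPKM in CR livers, against 6.93, 11.5 and 12.7 FPKM in AL livers. The lowest CR liver was well above the highest AL liver, and the mean of CR livers was 2.39 times that of AL livers. The log2 fold change was 1.29 (SE 0.207, adjusted p = 0.00551, limma), and Npc1 passed under each of the 16 alternatives (adjusted p 0.00267 to 0.0387). Rmc1, on the opposite strand of the same region, averaged 3.80 FPKM in CR livers and 3.55 FPKM in AL livers.

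Lamp1 had 226, 231, 239 and 210 FPKM in CR livers, against 216, 205 and 223 FPKM in AL livers. The groups overlapped, and the interval of its log2 fold change, -0.15 to 0.31 around 0.08, left no room for a change of the size seen in Npc1. Lamp2, which encodes the second major membrane glycoprotein and a receptor for chaperone-mediated autophagy, and Mcoln1, the calcium channel of the lysosome, overlapped at log2 fold changes of -0.07 and 0.13.

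The partner of Npc1 in cholesterol export rose with it. Npc2 (ENSMUSG00000021242, chr12:84754562-84773152) encodes the soluble protein that passes cholesterol to NPC1. It had 15.7, 14.5, 16.4 and 17.1 FPKM in CR livers, against 10.1, 11.8 and 11.9 FPKM in AL livers. All CR livers lay above all AL livers, with a log2 fold change of 0.50 (SE 0.105, adjusted p = 0.0153, limma). Without AL1 the Npc2 call was lost at an adjusted p of 0.0561, within 0.0130 to 0.0954 over the alternatives. Lipa encodes the acid lipase that frees the cholesterol and fatty acids those proteins act on. It had 92.2, 92.4, 65.5 and 70.4 FPKM in CR livers, against 47.4, 49.5 and 76.2 FPKM in AL livers. AL3 was above CR3 and CR4, and a log2 fold change of 0.49 (95% interval 0.01 to 0.97) did not pass (adjusted p = 0.133, limma). Without AL3, Lipa passed at 0.71 (adjusted p = 0.0312, limma, within 0.0312 to 0.347 over the alternatives).

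Psap (ENSMUSG00000004207, chr10:60277627-60302597) had 197, 210, 198 and 192 FPKM in CR livers, against 146, 149 and 166 FPKM in AL livers. The groups did not overlap, and Psap rose by 0.37 on the log2 scale (SE 0.0987, adjusted p = 0.0334, limma). Its call was lost under quantile normalization and without any 1 library other than AL3 (adjusted p 0.0569 to 0.124 without a library, within 0.0232 to 0.124 over the alternatives). Gaa, the enzyme that digests glycogen in the lysosome, had 19.95 to 25.8 FPKM in CR livers and 18.5 to 19.0 FPKM in AL livers. Its groups did not overlap, but the log2 fold change of 0.24 did not pass (95% interval -0.01 to 0.49).

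Of the 6 proteases 4 rose and 0 fell, with a median log2 fold change of 0.44. No protease was lower at an unadjusted p under 0.05 either, and limma-voom likewise called 4 higher and 0 lower. All 4 calls were lost without AL1, and all 4 were lost without AL2. Their FPKM summed to 513, 549, 679 and 578 in CR1 to CR4, against 415, 434 and 494 in AL1 to AL3, with no overlap. Ctsl (ENSMUSG00000021477, chr13:64359337-64370890) encodes cathepsin L, a cysteine protease. It had 97.4, 99.6, 162 and 115 FPKM in CR livers, against 70.3, 63.7 and 78.3 FPKM in AL livers. CR3 was far above the other CR livers, yet all were above the AL livers, and the log2 fold change was 0.72 (SE 0.189, adjusted p = 0.0338, limma). The Ctsl call was lost without CR4, AL1 or AL2 (adjusted p 0.0659 to 0.120, within 0.0208 to 0.120 over the alternatives). Its transcripts shared 23.5% of their 100-base words with other genes.

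Cathepsin A, which also protects other enzymes in the lumen, is encoded by Ctsa (ENSMUSG00000017760, chr2:164832873-164841032). Ctsa had 34.1, 40.2, 38.2 and 38.8 FPKM in CR livers, against 24.8, 24.8 and 29.6 FPKM in AL livers. The groups were apart, with a log2 fold change of 0.52 (SE 0.109, adjusted p = 0.0147, limma). Without AL1 or AL2 the adjusted p of Ctsa was 0.0601 and 0.0669, within 0.00951 to 0.0803 over the alternatives. Pltp lies on the opposite strand and overlaps Ctsa. It averaged 13.5 FPKM in CR livers and 16.6 FPKM in AL livers.

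Ctsh (ENSMUSG00000032359, chr9:90054152-90076089) encodes cathepsin H, which trims peptides from their ends. Ctsh had 61.7, 62.6, 64.8 and 66.0 FPKM in CR livers, against 39.5, 44.9 and 52.2 FPKM in AL livers. The CR livers were close together above the spread AL livers, and Ctsh rose by 0.50 on the log2 scale (SE 0.115, adjusted p = 0.0213, limma). Its call was lost without CR2, AL1 or AL2 (adjusted p 0.0503 to 0.0775, within 0.00921 to 0.0885 over the alternatives). Ctsd (ENSMUSG00000007891, chr7:142375911-142388038) encodes cathepsin D, the main aspartic protease of the lysosome. Ctsd had 100.04, 108, 116 and 105 FPKM in CR livers, against 82.1, 77.3 and 87.2 FPKM in AL livers. With no overlap it rose by 0.38 on the log2 scale (SE 0.1005, adjusted p = 0.0325, limma). Without CR2, CR3, CR4, AL1 or AL2 the Ctsd call was lost (adjusted p 0.0591 to 0.127, within 0.0271 to 0.127 over the alternatives), and 30.2% of its 100-base words occur in other genes.

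The 2 proteases that did not pass differed in how they varied. Ctsz, the most abundant, had 104, 125, 199 and 151 FPKM in CR livers, against 113, 127 and 140 FPKM in AL livers. CR1 was below and CR3 far above the AL range, and the log2 fold change of 0.15 (95% interval -0.35 to 0.65, adjusted p = 0.658, limma) was -0.02 without CR3. Ctsb, the cysteine protease cathepsin B, had 98.5 to 116 FPKM in CR livers and 85.4 to 106 FPKM in AL livers, and its log2 fold change of 0.17 had a 95% interval of -0.10 to 0.44. Fdft1 overlaps Ctsb on the opposite strand and averaged 52.9 FPKM in CR livers and 31.4 FPKM in AL livers.

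Macrophages are rich in lysosomes. Their 11 markers summed to 250, 324, 119 and 234 FPKM in CR1 to CR4, against 214, 278 and 328 FPKM in AL1 to AL3, so that the groups overlapped. Marco was higher in CR, C1qa was lower, 9 did not pass and none was at 0 in every library. CR3 had the lowest macrophage sum of all 7 livers and the highest Ctsl, Ctsd and Ctsz, of which Ctsz did not pass. Ctsa, Npc1 and Psap were highest in CR2, and Ctsh and Npc2 in CR4. The 6 markers of endothelial cells, of which 0 were called, summed to 19.2 to 39.5 FPKM in CR livers and 44.1 to 49.5 FPKM in AL livers. These sums did not overlap, and all 6 markers had a negative log2 fold change, from -0.24 for Kdr to -0.91 for Stab1. Of the 6 stellate cell markers, the collagen genes Col1a1 and Col3a1 were lower in CR (log2 fold change -2.04 and -1.17). Col1a1 was a low gene, with a mean of 0.252 FPKM in CR livers. Dcn, the most abundant of the 6, went the other way at 0.65, with means of 30.1 FPKM in CR and 18.6 FPKM in AL livers. It overlapped and did not pass. Lrat, Des and Reln, at -0.75, -0.51 and -0.36, did not pass either. The macrophage markers and the stellate markers thus did not move together, whereas the endothelial markers all lay below 0. The part of these cells in the results was not tested.

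The V-ATPase subunits moved little. All 8 had a positive log2 fold change, between 0.08 and 0.35, although Atp6v1h was at -0.06 without AL3, and their FPKM summed to 117, 122, 124 and 116 in CR1 to CR4, against 103, 105 and 105 in AL1 to AL3. The sums did not overlap, but 7 of the 8 genes did not pass the test. Atp6v1e1 (ENSMUSG00000019210, chr6:120794305-120822793) encodes a stalk subunit. It had 23.9, 24.3, 25.2 and 24.1 FPKM in CR livers, against 19.3, 20.3 and 20.7 FPKM in AL livers. Both groups were tight and apart, and Atp6v1e1 rose by 0.28 on the log2 scale (SE 0.0828, adjusted p = 0.0487, limma). The Atp6v1e1 call was the most fragile of the 14 and was lost in 14 of 16 alternatives, among them those without any 1 library (adjusted p 0.0545 to 0.150) and limma-voom (0.0586), with an adjusted p of 0.0292 to 0.177 over all alternatives. At an unadjusted p under 0.05, 3 of the 8 were higher and 0 lower, and limma-voom called 0 in either direction.

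Atp6v0d1, in the membrane sector of the pump, was the most abundant subunit with 38.0, 43.5, 44.5 and 38.7 FPKM in CR livers, against 37.1, 36.9 and 36.3 FPKM in AL livers. Every CR liver was above every AL liver, though CR1 only just, and the log2 fold change of 0.16 did not pass (95% interval -0.07 to 0.39, adjusted p = 0.280, limma). Atp6v1d and Atp6v1c1, of the rotor and stalk, did not overlap either, at 0.35 and 0.29 with adjusted p of 0.0999 and 0.0864 (limma). Atp6v0e, Atp6v1a, Atp6v1b2 and Atp6v1h overlapped at 0.14, 0.12, 0.17 and 0.08.

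Other genes of the pathway came from textbook lists of 145 symbols. The table held 144 of them, and 129 passed the filter. In CR livers 20 of these were higher (15.5%) and 8 lower (6.2%), with a median log2 fold change of 0.07. Over all genes tested the shares were 11.3% and 10.2%. Without AL2 the counts were 10 and 3, without AL1 they were 13 and 3, without CR2 12 and 3, and without CR1 15 and 4. In the same order, these fits called 699 and 629, 799 and 686, 911 and 841, and 1006 and 881 over all genes tested.

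Of 17 further genes of the autophagy machinery limma called 0 in either direction. At an unadjusted p under 0.05, 3 were higher and 2 lower, and limma-voom also called 0. Rb1cc1, the scaffold of the ULK complex, had 3.90 to 4.18 FPKM in CR livers and 3.26 to 3.31 FPKM in AL livers, with no overlap but an adjusted p of 0.0675 (limma, log2 fold change 0.29). Wdr45b, a relative of the WIPI proteins, was at -0.76 (adjusted p = 0.0731, limma), and without AL3 it passed at -1.10 (0.00538, within 0.00538 to 0.185 over the alternatives). Nrbf2, a subunit of the lipid kinase complex, had 4.49 to 9.08 FPKM in CR livers and 9.55 to 12.2 FPKM in AL livers (log2 fold change -0.67, adjusted p = 0.0734, limma). Nrbf2 shared 48.25% of its 100-base words with another gene. Vmp1, a scramblase and the most abundant on this list, overlapped at -0.11. Of 15 further receptors and genes that mark their cargo 4 rose (26.7%) and 0 fell, against 11.3% and 10.2% of all genes tested. The counts were the same at an unadjusted p under 0.05 and by limma-voom. Bnip3l, the closest relative of Bnip3 and like it a receptor for mitochondria, had 26.2, 28.6, 28.4 and 30.6 FPKM in CR livers, against 20.6, 22.8 and 20.2 FPKM in AL livers. With no overlap its log2 fold change was 0.42 (adjusted p = 0.0204, limma), and the call was lost without CR2 or AL1 (0.0534 and 0.0728, within 0.0142 to 0.110 over the alternatives). Bnip3l shared 13.99% of its 100-base words with a pseudogene. Retreg1, a receptor for the endoplasmic reticulum, had 37.9, 34.3, 55.6 and 27.6 FPKM in CR livers, against 22.3, 14.3 and 7.81 FPKM in AL livers. Every CR liver was higher, at a log2 fold change of 1.47 (adjusted p = 0.0269, limma), and the call was lost without CR1, CR2, CR3 or AL2 (0.0545 to 0.0767, within 0.0156 to 0.0827 over the alternatives). Ncoa4, the receptor for ferritin, and Pink1, a kinase that marks damaged mitochondria, rose by 0.50 and 0.55. Leaving out any 1 library other than CR1 ended the Ncoa4 call (0.0589 to 0.0934, within 0.0169 to 0.129), and any 1 other than CR2 the Pink1 call (0.0617 to 0.116, within 0.0337 to 0.176).

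**Figure D5:**
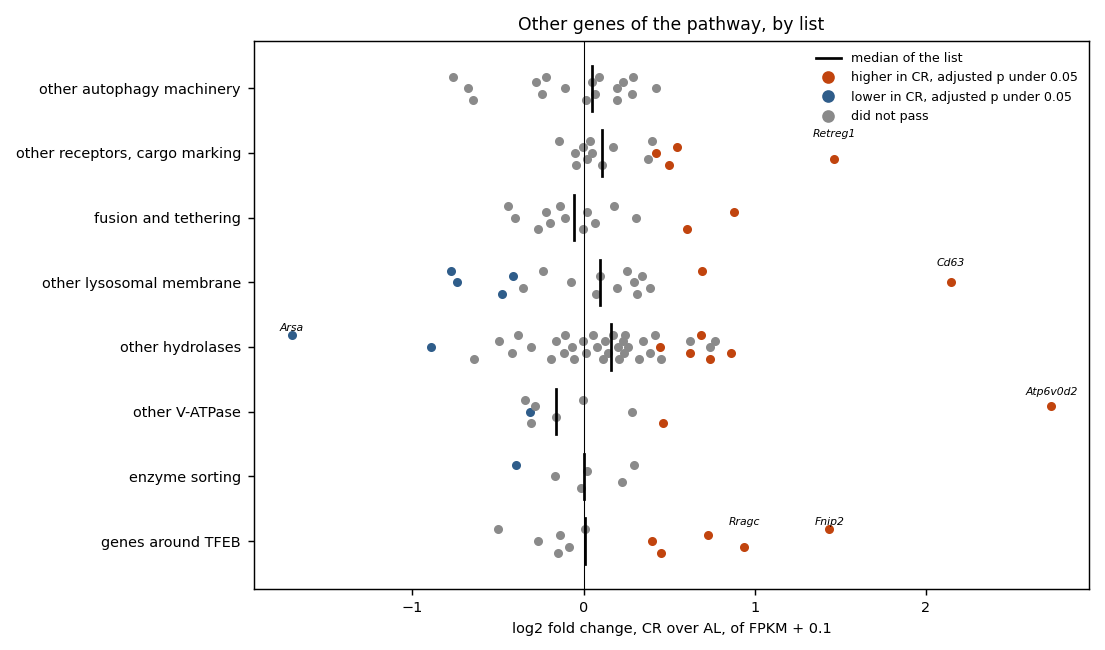
Log2 fold change (CR over AL, of FPKM + 0.1) of the 129 tested genes on the other lists, with the median of each list as a black bar, genes that passed upwards in red, downwards in blue and the rest in grey. Medians stay near 0 while single genes such as Atp6v0d2 at 2.73 and Arsa at -1.71 lie far out.

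Of 14 genes for fusion of autophagosomes with lysosomes 2 rose (14.3%) and 0 fell. At an unadjusted p under 0.05 the counts were 2 and 2, and limma-voom gave 2 and 1. Vps11, a core subunit of the tethers that dock the membranes, had 11.6, 11.02, 11.1 and 10.4 FPKM in CR livers, against 5.93, 6.27 and 5.68 FPKM in AL livers. Both groups were narrow and far apart, with a log2 fold change of 0.88 (adjusted p = 8.59e-04, limma) and a call under each of the 16 alternatives (6.20e-04 to 0.0246). Stx17, the fusion protein of the autophagosome, rose by 0.60 (adjusted p = 0.0158, limma), a call lost without AL2 (0.0573, within 0.00967 to 0.0876). Vps18, another core subunit of the tethers, was at -0.40 and did not pass (adjusted p = 0.0835, limma). Rab7, the GTPase that recruits them and the most abundant of the 14, had 65.9 to 79.8 FPKM in CR livers and 62.4 to 67.0 FPKM in AL livers, which overlap.

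Of 17 further lysosomal membrane genes 2 rose (11.8%) and 4 fell (23.5%), against 11.3% and 10.2% of all genes tested. Cd63, a tetraspanin of late endosomes and lysosomes, had 2.91, 7.63, 6.87 and 3.97 FPKM in CR livers, against 1.12, 1.06 and 0.976 FPKM in AL livers. CR livers varied but all were higher, at a log2 fold change of 2.14 (adjusted p = 0.00435, limma). Slc15a4, a peptide and histidine carrier, rose by 0.69 (adjusted p = 0.00568, limma), a call lost with the replicate number as a block (0.0508). It overlaps Glt1d1 on the opposite strand, which averaged 16.0 FPKM in CR livers and 6.73 FPKM in AL livers, and the sources used here do not say whether strand was used in counting. Tpcn1, a cation channel, had 4.65, 4.65, 3.96 and 4.16 FPKM in CR livers, against 6.84, 6.61 and 9.36 FPKM in AL livers. It fell by 0.78 on the log2 scale (adjusted p = 0.00977, limma), a call lost with the replicate number as a block (0.0827). Scarb2, Mfsd8 and Clcn7 fell by 0.41, 0.74 and 0.47. A gene on the same strand, 2510016D11Rik, overlaps Tpcn1 and averaged 1.58 FPKM in CR livers and 1.22 FPKM in AL livers. The Scarb2 call was lost without CR1, CR2, AL1, AL2 or AL3 (0.0601 to 0.120, within 0.0257 to 0.120 over the alternatives). The Mfsd8 call was lost without CR2, CR4, AL1 or AL2 (0.0508 to 0.0818, within 0.00853 to 0.0959), and the Clcn7 call without CR1, CR3 or AL1 (0.0573 to 0.0829, within 0.0171 to 0.128). Laptm4a, the most abundant on this list, was at 0.07 and did not pass.

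Of 40 further hydrolases and their helpers 5 rose (12.5%) and 2 fell (5%), against 11.3% and 10.2% of all genes tested. Arsa, the sulfatase that acts on sulfatides, had 2.83, 4.98, 5.63 and 4.40 FPKM in CR livers, against 14.7, 13.98 and 14.4 FPKM in AL livers. Every CR liver was far below the AL livers, and Arsa fell by 1.71 on the log2 scale (SE 0.215, adjusted p = 0.00217, limma). Ids, a sulfatase that acts on glycosaminoglycans, rose by 0.74 (adjusted p = 0.00435, limma), a call lost with the replicate number as a block (0.0553). Arsa passed under each of the 16 alternatives. Lgmn, the protease legumain and the most abundant of the 40, overlapped at -0.16 and was at 0.01 without CR3.

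Among 9 tested V-ATPase genes outside the 50, 2 rose (22.2%) and 1 fell (11.1%), against 11.3% and 10.2% of all genes tested. Unlike the 8 subunits within the 50, these 9 had a negative median log2 fold change, at -0.16, with 3 above 0 and 6 below. Atp6v0d2, a second form of the d subunit, had 5.19, 5.08, 2.77 and 2.59 FPKM in CR livers, against 0.407, 0.303 and 0.827 FPKM in AL livers. Its CR livers fell into a higher and a lower pair, all above the AL livers, and the log2 fold change of 2.73 (SE 0.367, adjusted p = 0.00279, limma) was called in each of the 15 alternatives that tested it. Its level stayed below that of Atp6v0d1, at 38.0 to 44.5 FPKM, in every CR liver. The accessory subunit Atp6ap2 rose by 0.46 (adjusted p = 0.0265, limma), and Atp6ap1 fell by 0.31 (adjusted p = 0.0379, limma). The Atp6ap2 call was lost without CR2, AL1 or AL2 (0.0617 to 0.102, within 0.0163 to 0.102), and the Atp6ap1 call without any 1 library (0.0645 to 0.127, within 0.0279 to 0.183). Atp6v1g1, the most abundant of the 9, had 33.2 to 52.8 FPKM in CR livers and 31.8 to 35.8 FPKM in AL livers and did not pass (log2 fold change 0.28).

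Of 6 genes that sort enzymes to the lysosome limma called 0 higher and 1 lower (16.7%), against 11.3% and 10.2% of all genes tested. The counts were the same at an unadjusted p under 0.05 and by limma-voom. Nagpa, which uncovers the mannose 6-phosphate tag, fell by 0.39 on the log2 scale (adjusted p = 0.0312, limma), and its call was lost without CR1, CR2, CR4, AL1 or AL2 (0.0643 to 0.115, within 0.0283 to 0.156). M6pr, a receptor for that tag, had 19.96 to 23.4 FPKM in CR livers and 22.2 to 22.9 FPKM in AL livers. Gnptg and Gnptab, the subunits of the enzyme that adds the tag, overlapped at 0.30 and 0.23, and Gnptg shared 45.13% of its 100-base words with Unkl.

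On a list of 11 genes around TFEB, most of which act through mTORC1 at the lysosome, 5 rose (45.5%) and 0 fell. The exception Zkscan3, a repressor of lysosomal genes in human cells, was at -0.08 and did not pass. Over all genes tested 11.3% rose and 10.2% fell. The median log2 fold change of the 11 genes was 0.01, with 6 above 0 and 5 below. At an unadjusted p under 0.05 the counts were 5 and 1, and limma-voom gave 5 and 0. Rragc encodes one of the Rag GTPases that bring mTORC1 and TFEB to the lysosome. It had 23.7, 24.2, 22.0 and 16.4 FPKM in CR livers, against 10.48, 10.1 and 12.9 FPKM in AL livers. All CR livers were higher, with a log2 fold change of 0.94 (adjusted p = 0.00724, limma). Fnip1 and Fnip2 encode partners of folliculin, the GAP that acts on RagC. Fnip1 rose by 0.73 (adjusted p = 0.00885, limma), a call lost with the replicate number as a block (0.05865). Fnip2 had 8.07, 8.89, 6.46 and 6.53 FPKM in CR livers, against 1.44, 2.72 and 4.86 FPKM in AL livers, and rose by 1.44 (adjusted p = 0.0269, limma). The Fnip2 call was lost without CR1, CR2 or AL2 (0.0629 to 0.0804, within 0.00490 to 0.0880). Flcn, the folliculin gene, and Lamtor3, of the complex that anchors the Rag proteins, rose by 0.40 and 0.45. Leaving out any 1 library other than AL2 ended the Flcn call (0.0832 to 0.150, within 0.0284 to 0.165), and any 1 other than AL1 the Lamtor3 call (0.0537 to 0.137, within 0.0386 to 0.198). Lamtor2, of the same complex, had 18.8, 19.6, 26.0 and 30.4 FPKM in CR livers, against 32.3, 34.1 and 32.2 FPKM in AL livers. It lay below the AL range in every CR liver but did not pass (log2 fold change -0.50, adjusted p = 0.0822, limma), and without CR4 it was called at -0.63 (0.0318, within 0.0318 to 0.203).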

How the data were processed

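The authors deposited 1 table of FPKM values for 54532 genes in 7 liver libraries. Tools named by the submitters' processing notes are featureCounts 1.5.0-p3, HISAT2 2.0.5 and CASAVA 2.19, and the build is GRCm38. The strand setting and the calculation of FPKM were not given in the sources used here. Multiplied by gene length, the values of a library were whole multiples of 1 step within 0.00011 reads, and these multiples were taken as reads. Libraries were assigned to diet from the labels. Each liver gave 1 library, so that p-values measure the spread between these mice, and no pair of libraries held the same values (lowest chi-square per gene 17.02).

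The test used log2(FPKM + 0.1), a scale that understates the change of low genes, for each of the 12699 genes that reached 0.5 FPKM in 3 or more libraries. It was run two-sided in limma 3.58.1 (trend and robust, with statmod 1.5.0, under R 4.3.3). P-values were adjusted by Benjamini-Hochberg over these genes, and a gene was called at an adjusted p under 0.05. No count model was the main test because the table holds FPKM. The test was checked on simulated data. Alternatives covered the scaling between libraries, pseudocount, filter, variance model, the replicate block, limma-voom run on the recovered reads, and omission of each library. Motifs and transcripts came from RefSeq windows (GRCm38.p6) and the reference transcripts, and coordinates of genes from the deposited table. Words of 100 bases measured sequence shared with other genes. Figures used Python 3.11.15 and matplotlib 3.10.9.

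The 50 genes and all lists were chosen with earlier results of these data known. By rule, every called member and the most abundant member of each role were named, and in each other list the 3 genes with the smallest adjusted p and the most abundant. Some of what the rule picks is not reported here. Genes outside the rule were named after their values were seen. Map1lc3b2 of the lists and the hepatocyte marker Tf were not found in the table. Markers of 5 further cell types (stellate, bile duct and fat cells, lymphocytes and neutrophils) were summed. Stellate markers summed to 21.1 to 53.4 FPKM in CR livers and 22.6 to 33.4 FPKM in AL livers, with 2 of 6 called lower (4 did not pass), bile duct markers to 18.2 to 42.3 and 25.8 to 78.2, lymphocyte markers to 0.293 to 0.822 and 0.739 to 1.82, neutrophil markers to 4.17 to 15.6 and 7.14 to 18.2, with Ly6g at 0 throughout, and adipocyte markers to 0 to 0.464 and 3.41 to 6.26, of which Cfd was called lower. No marker of the other 3 types was called, but the filter left 4 of 5 lymphocyte, 1 of 3 neutrophil and 1 of 5 bile duct markers untested. Adipoq, the other adipocyte marker, was not tested either, at 0 to 0.133 FPKM in CR livers and 0 to 0.0426 FPKM in AL livers.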

Additional observations from a re-analysis of the deposited data

How the results depend on the processing

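No called gene among the 50 changed direction under any of the 16 alternatives, and Bnip3 and Npc1 passed in each. Without the filter on low values 5 of the 50 were higher and 2 lower, with 12 and 5 among the other pathway genes, and without trend and robust variance 2 of the 50 were lower. Leaving out 1 library gave 2 to 9 members higher and 1 to 5 lower, 699 to 1523 and 629 to 1234 over all genes, and 10 to 24 and 3 to 8 among the other pathway genes, and the cause of these shifts beyond the smaller number of samples was not tested. Among genes that did not pass, the log2 fold change ran over leave-one-out fits from -0.0182 to 0.2939 for Ctsz, -0.2884 to 0.0305 for Vmp1, -0.2883 to 0.0116 for Lgmn, -0.0396 to 0.0370 for M6pr, -0.0998 to 0.0648 for Atg9a, -0.0635 to 0.1072 for Atg7, -0.1747 to 0.01 for Map1lc3b, -0.1595 to 0.0263 for Gabarap, -0.0885 to 0.0548 for Optn, -0.1375 to 0.0026 for Lamp2 and -0.0601 to 0.1751 for Atp6v1h. Quantile normalization put M6pr at 0.0267 and Atg9a at 0.0167, and Atg7 was at -0.0318 on own read totals and at -0.0065 by limma-voom. With 4 and 3 mice, the 95% intervals of the 50 genes were 0.383 to 1.33 wide on the log2 scale.

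Replicate numbers are shared by the diets. The correlation of same-numbered libraries' deviations was 0.031, -0.044 and -0.057, and not every library correlated best with its own number. With so few libraries these values cannot show whether the numbers pair the mice. A fit with the replicate number as a block, in which CR4 has no partner and adds nothing to the comparison, called 482 genes higher and 508 lower over all genes, 2 and 0 of the 50 members and 5 and 2 of the other pathway genes, and put M6pr at 0.0370, Atg9a at 0.0648 and Lamp2 at 0.0026.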
